A study of Homo sapiens with 30 samples.

Results

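The genes described here are 7 genes of antigen presentation and the interferon response, namely IFI16, BST2, HLA-B, HLA-C, HLA-E, HLA-DMB and B2M. They are 7 of the 60664 genes in the count table and were chosen by name, partly from measured responses in the same libraries. IFI16 was picked because it fell with tetracycline in the WDM line, and BST2 and HLA-DMB because they fell with arsenite in that line. Those responses of the WDM cytosol libraries are therefore given as description, with no test. BST2 and HLA-DMB are likewise described, not tested, for arsenite in WDM granule cores. Tests are given only in comparisons that the choice did not use.

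The cells were HEK293, an established human embryonic kidney line, in its Flp-In T-REx form, in which tetracycline switches on an inserted gene. Both lines studied carry GFP-tagged TIA1a, a protein that binds RNA and helps to form stress granules, as wild type (WT) or with the change found in Welander distal myopathy (WDM). Cytosol RNA came from untreated cells, from cells given tetracycline (tet), and from cells given tetracycline and then 0.5 mM sodium arsenite for 60 min, with 3 libraries per line and condition and 18 in all. RNA of granule cores, pulled down through the GFP tag, came from the tetracycline and tetracycline-plus-arsenite cells of each line, with 12 libraries in 4 groups of 3. There were no granule libraries from untreated cells. Each genotype is represented by a single cell line, so the mutation cannot be told apart from any other difference between the lines. The labels do not say that replicates were separate cultures, so p-values measure only the spread between these libraries.

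HLA-B, HLA-C and HLA-E encode heavy chains of MHC class I molecules, which show peptides from inside the cell to CD8 T cells, or in the case of HLA-E chiefly to natural killer cells. B2M encodes the light chain that every class I molecule needs to reach the cell surface. HLA-DMB encodes a chain of HLA-DM, which loads peptides onto class II molecules. IFI16 senses DNA in the nucleus and cytosol, and BST2 (tetherin) holds budding viruses at the cell surface. Interferons raise many such genes through STAT and IRF factors, which bind the ISRE and GAS motifs, and class I promoters also carry an NF-kappaB site in their enhancer.

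Promoter stretches of the genes are shown because each holds at least 1 of the motifs marked below, though no marked motif is in all of them. The sequences are from the RefSeq promoter table (GRCh38.p14), which held windows for 6 of the 7 genes, each reaching from 250 bases before to 50 bases after a start site. HLA-E had no window there, and IFI16 had 2, of which the one with the paired repeat is shown. All 30 bases shown for B2M lie in an annotated exon in GENCODE v44. Capitals mark matches on either strand to GAAANNGAA (a paired ISRE-type repeat), AANNGAAA (the core that IRF factors bind, which can overlap the former), TTCNNNGAA (GAS) or GGGGATTCC (an NF-kappaB site). The stretches are chr19:17405671-17405780 (BST2, minus strand), chr15:44711368-44711397 (B2M, plus), chr6:31357300-31357369 (HLA-B, minus), chr6:31272213-31272282 (HLA-C, minus), chr6:32941129-32941198 (HLA-DMB, minus) and chr1:159009807-159009866 (IFI16, plus).
BST2: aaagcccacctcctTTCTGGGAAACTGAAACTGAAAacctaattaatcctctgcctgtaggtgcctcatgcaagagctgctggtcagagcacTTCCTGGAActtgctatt
B2M: tctaaGAAAAGGAAACTGAAAacgggaaag
HLA-B: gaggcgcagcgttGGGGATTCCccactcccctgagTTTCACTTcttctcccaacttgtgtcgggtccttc
HLA-C: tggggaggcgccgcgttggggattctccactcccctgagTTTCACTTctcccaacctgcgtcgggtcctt
HLA-DMB: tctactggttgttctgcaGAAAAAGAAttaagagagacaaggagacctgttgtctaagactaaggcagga
IFI16: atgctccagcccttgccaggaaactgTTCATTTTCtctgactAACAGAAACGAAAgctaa
The paired repeat was matched at 2 positions in BST2, 2 in B2M, 1 in HLA-DMB and 1 in IFI16, and 8.11% of the 35116 promoters in the table hold it. The IRF core was matched in BST2, B2M, HLA-B, HLA-C and IFI16, and 22.8% of all promoters hold it. The GAS letters were matched at 2 positions in BST2, against 7.66% of all promoters. The NF-kappaB letters were matched in HLA-B, against 0.285% of all promoters. Unlike the other marked motifs, GGGGATTCC has no free position. Its share is therefore that of an exact string, not of NF-kappaB sites in general. The letters CCAAT (the Y box) were also searched but are not marked. They were matched in the full windows of all 6 genes, for IFI16 in the window shown, against 34.6% of all promoters. A match is a description of letters and was not tested as a binding site.

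Library totals ran from 5906167 to 27419145 counts, so a count of 0 in a library allows up to 0.109 to 0.508 CPM (a gene's share of all counts in its library, on the usual CPM scale). This floor of 3 counts allows for counting error and nothing else, as PCR copies of a molecule were not told apart. The TIA1 row held at most 1 count in any library and 3 in all, so the induction of the transgene could not be checked from it. All 5 epithelial markers were present, with a summed level of 315 to 570 CPM in cytosol. Of 7 genes typical of HEK293 cells, 6 rose above 3 counts in some library (PAX8 did not). Blood and immune markers summed to at most 2.88 CPM, and MS4A1 was at 0 throughout. The WDM line had less of the epithelial markers, at 351 to 362 CPM untreated against 484 to 517 CPM in WT. That difference moves with every comparison between the lines below, and its part in them was not tested.

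Levels of different genes are compared per kilobase of the Ensembl canonical transcript. In untreated WT cytosol, B2M stood highest at 286 ± 8.49 CPM per kb (SD, n = 3), followed by HLA-C at 172 ± 4.12, HLA-B at 75.2 ± 1.51 and HLA-E at 37.6 ± 0.616. BST2 stood at 5.06 ± 1.51 CPM per kb and HLA-DMB at 4.49 ± 0.574, and their libraries overlap. IFI16 stood at 0.105 ± 0.0688 CPM per kb, close to the floor. In untreated WDM cytosol the order of the most abundant 4 was the same, while IFI16 reached 4.44 ± 0.415 CPM per kb, next to HLA-DMB at 4.5 ± 0.320. Class I heavy chains and their light chain were thus plentiful in both lines, and the class II and interferon-linked members were scarce.

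**Figure D1:**
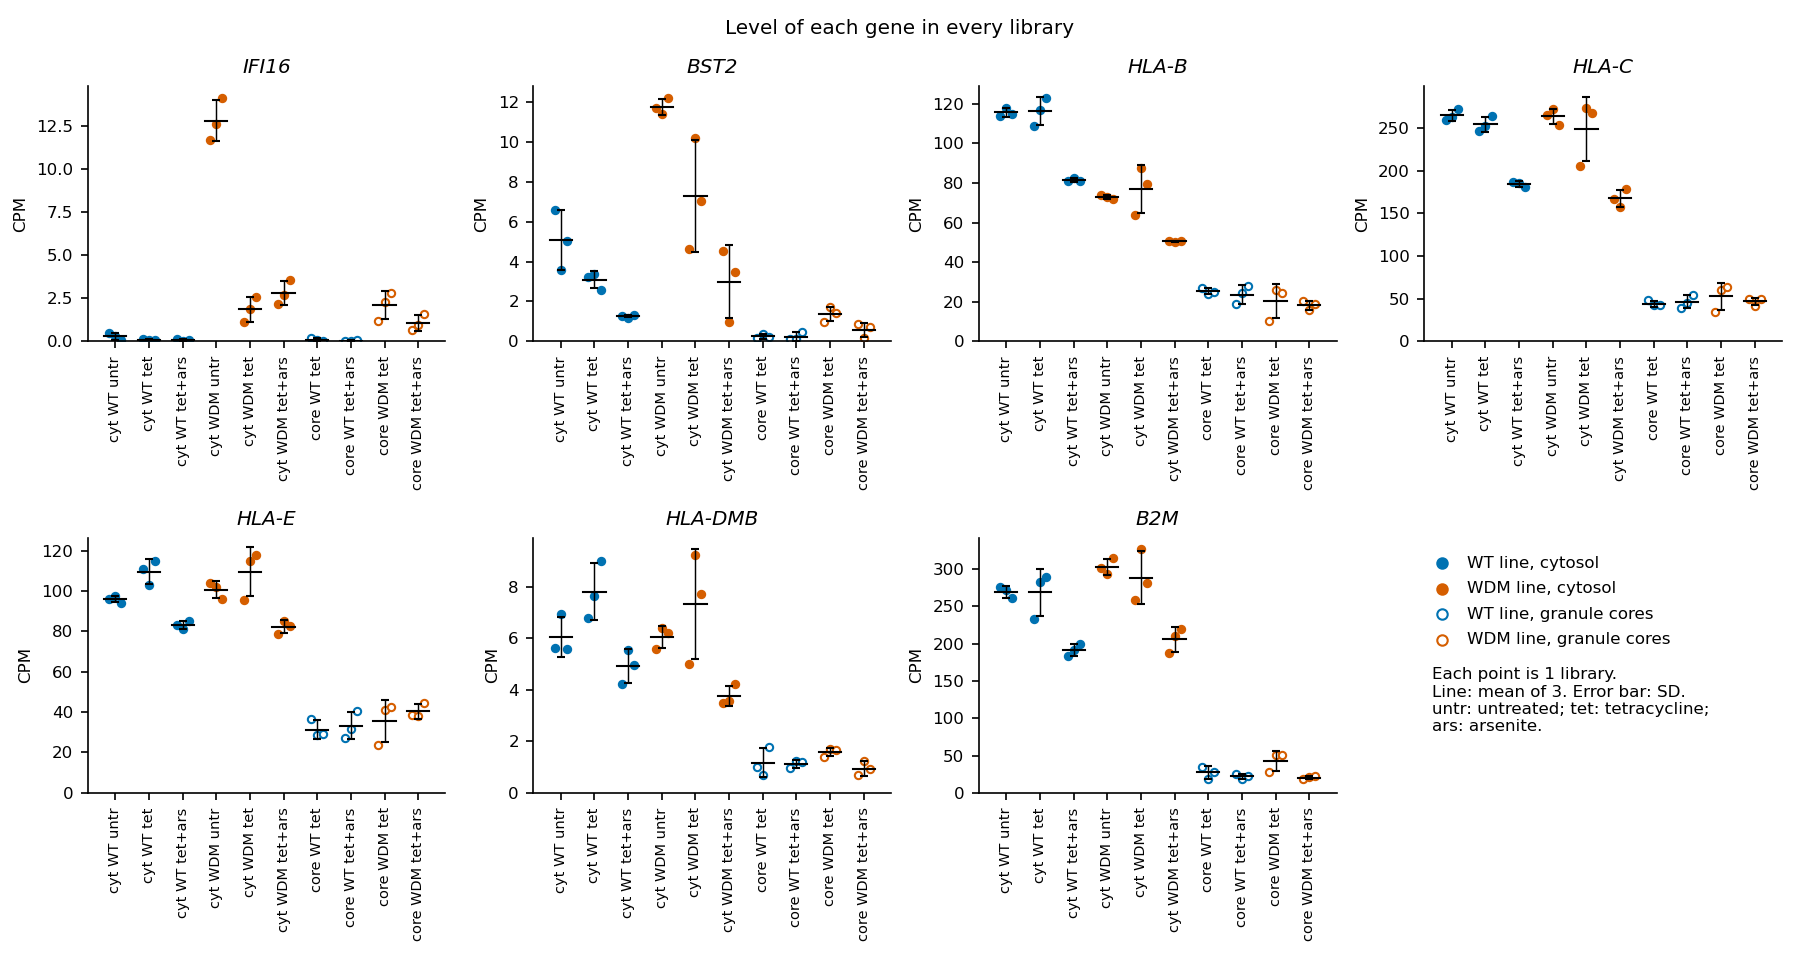
Level of each gene (CPM, y axis from 0) in the 30 libraries, by group (x axis; core stands for granule cores). Points are libraries, lines are means of 3 and bars are SD. Granule cores (open points) lie below cytosol (filled points) of the same line and treatment for every gene but IFI16, arsenite groups lie below tetracycline groups in cytosol for 6 genes, and IFI16 is near 0 in all WT groups.

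With arsenite in WT cytosol, libraries that the choice of genes did not use, 6 of the 7 genes fell. BST2 and HLA-DMB had been chosen for a fall with the same treatment in the other line, so their direction here is not independent evidence. The falls were 1.44-fold to 1.74-fold for HLA-B, HLA-C, HLA-E, HLA-DMB and B2M and 2.67-fold for BST2, with all arsenite libraries below all tetracycline libraries for each of the 6. Over the whole table, 15.4% of the 16670 genes tested were lower with arsenite (edgeR's quasi-likelihood test, Benjamini-Hochberg adjusted p under 0.05). The median log2 fold change of the 7 genes was -0.63, against -0.02 over all genes tested. IFI16 had 0 to 2 counts per library in these groups, so its change could not be measured.

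The class I heavy chains fell together. HLA-B, a classical class I chain, stood at 109, 117 and 123 CPM with tetracycline and at 81.2, 82.6 and 81.0 CPM with arsenite in WT cytosol. The arsenite libraries hardly differ from each other and none reaches the tetracycline range, and the log2 fold change was -0.65 ± 0.0918 (SE, edgeR adjusted p = 7.21e-05). HLA-C, the most abundant heavy chain per kilobase, went from 247, 252 and 264 CPM to 187, 185 and 181 CPM, a log2 fold change of -0.60 ± 0.0892 (edgeR adjusted p = 1.00e-04). HLA-E, the non-classical chain read by natural killer cells, went from 111, 103 and 115 CPM to 83.4, 81.4 and 85.3 CPM (log2 -0.53 ± 0.0807, edgeR adjusted p = 1.30e-04). HLA-B and HLA-C are close paralogs, so reads may be exchanged between their rows, and the similar size of their falls is not independent evidence for each. In GENCODE v44 HLA-B also shares 32.7% of its exon length with DHFRP2 and MIR6891 on the same strand. That model reaches position 31367067, past 31357188 where the counted HLA-B row ends, so the shared part of the counted exons is not known.

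B2M, the light chain, went from 233, 283 and 290 CPM to 184, 191 and 200 CPM in WT cytosol. Every arsenite library lies below the lowest tetracycline library, and the log2 fold change was -0.63 ± 0.108 (edgeR adjusted p = 3.46e-04). HLA-DMB, the class II peptide loader, went from 6.79, 7.66 and 9.00 CPM to 4.24, 5.55 and 4.96 CPM, a log2 fold change of -0.80 ± 0.191 (edgeR adjusted p = 0.00457). BST2, the virus tether, went from 3.25, 3.39 and 2.59 CPM (32 to 44 counts) to 1.28, 1.19 and 1.30 CPM (15 to 17 counts). Its groups are well apart, with a log2 fold change of -1.42 ± 0.447 (edgeR adjusted p = 0.0257). The BST2 call was lost when any of 5 of the 6 libraries was left out, with the adjusted p reaching 0.0867, and the log2 fold change stayed between -1.51 and -1.29 over all alternatives run.

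The size of these falls depends on scaling. With library size alone in place of TMM factors, the median of all genes with arsenite in WT cytosol moved from -0.02 to 0.11, and the calls went from 2279 higher and 2559 lower to 3302 higher and 1002 lower. The 6 genes were lower and called under both scalings.

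In WDM cytosol the same treatment is described without a test, since BST2 and HLA-DMB were chosen on it. BST2 stood at 4.64, 10.2 and 7.04 CPM with tetracycline and 4.53, 0.955 and 3.46 CPM with arsenite (log2 -1.42), so the groups come within a narrow margin of each other and replicate 2 with arsenite is far below the other two. HLA-DMB went from 5.02, 9.25 and 7.73 CPM to 3.48, 3.58 and 4.21 CPM (log2 -1.08). The log2 fold changes of the others were -0.70 for HLA-B, -0.67 for HLA-C, -0.50 for HLA-E and -0.58 for B2M. IFI16, which could be measured in this line, was at 1.13, 1.85 and 2.59 CPM without and 2.17, 2.68 and 3.53 CPM with arsenite, in overlapping groups (log2 0.39). Over all genes 14.8% were lower, and nothing is read from the members' falls against it. In cytosol the response by line had log2 differences (WDM minus WT) between -0.28 for HLA-DMB and 0.05 for B2M among the 5 genes other than IFI16 and BST2.

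**Figure D2:**
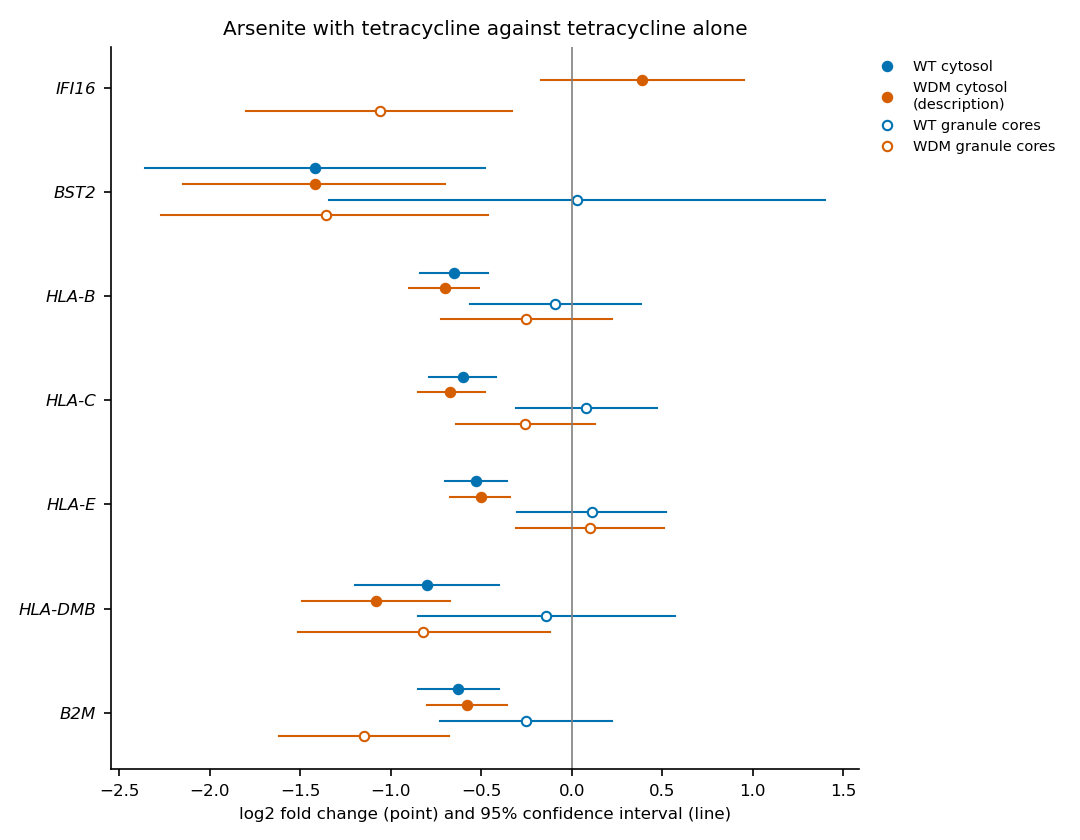
Log2 fold change with arsenite (x axis, point) and its 95% confidence interval (line) for each gene, in cytosol (filled) and granule cores (open) of the WT and WDM lines. Intervals of the HLA genes and B2M lie below 0 in WT cytosol and include 0 in WT granule cores. IFI16 is drawn for WDM alone because its WT libraries are at the floor.

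Partners of the class I chains fell along with them, in a comparison in which 13.7% of all genes were higher and 15.4% lower. Of 18 genes of class I assembly and peptide supply, 13 passed the filter on low counts, and with arsenite in WT cytosol 9 were lower and 0 higher (edgeR adjusted p under 0.05), with a median log2 fold change of -0.52. ERAP2, which trims peptides in the endoplasmic reticulum, fell most among those called (log2 -0.68 ± 0.125, edgeR adjusted p = 6.35e-04). Among 11 of 16 class II genes tested, 4 were lower and 1 higher. HLA-DPA1, a class II chain, fell most (log2 -0.63, edgeR adjusted p = 0.00812), and the gene that rose was HLA-DMA, the partner chain of HLA-DMB, from 0.567 to 1.47 CPM (log2 1.21, edgeR adjusted p = 0.0181). HLA-DMA had fallen with tetracycline alone, from 1.47 CPM untreated to the same 0.567 CPM (log2 -1.30, edgeR adjusted p = 0.0481). Both calls thus rest on the same low tetracycline libraries. The means untreated and with arsenite were equal, but these groups were not tested against each other. HLA-DMA and HLA-DMB each share exon sequence with the readthrough gene ENSG00000248993 (6.3% and 9.5% of exon length), so their low counts are uncertain.

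Other interferon-linked genes were called in both directions, in a comparison in which 13.7% of all genes were higher and 15.4% lower. The lists were not tested against these shares. Of 43 interferon-stimulated genes, 29 were tested in WT cytosol, with 2 lower, 1 higher and a median log2 fold change of -0.16. LGALS3BP, a secreted glycoprotein, fell most (log2 -0.52), and ISG15, a ubiquitin-like modifier, rose (log2 0.55). Of 22 signalling genes 16 were tested, with 5 higher and 3 lower. SOCS3, a feedback inhibitor of cytokine signalling, rose from 2.31 to 6.55 CPM (log2 1.37), and IFNGR1, a chain of the interferon gamma receptor, fell from 87.4 to 68.7 CPM (log2 -0.49). Of 12 genes of nucleic acid sensing and the IFI16 family 6 were tested, with 1 lower, the adaptor STING1 (log2 -0.30). The interferon genes IFNB1 and IFNL1 had 0 counts in all 30 libraries, and IFNG reached 1 count. TAP2, IFI30, IFITM1, RIGI and TREX1 are also listed at 0 in every library, and each shares between 19.5% and 100% of its exon length with another gene on the same strand, so these zeros are not read as absence.

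**Figure D3:**
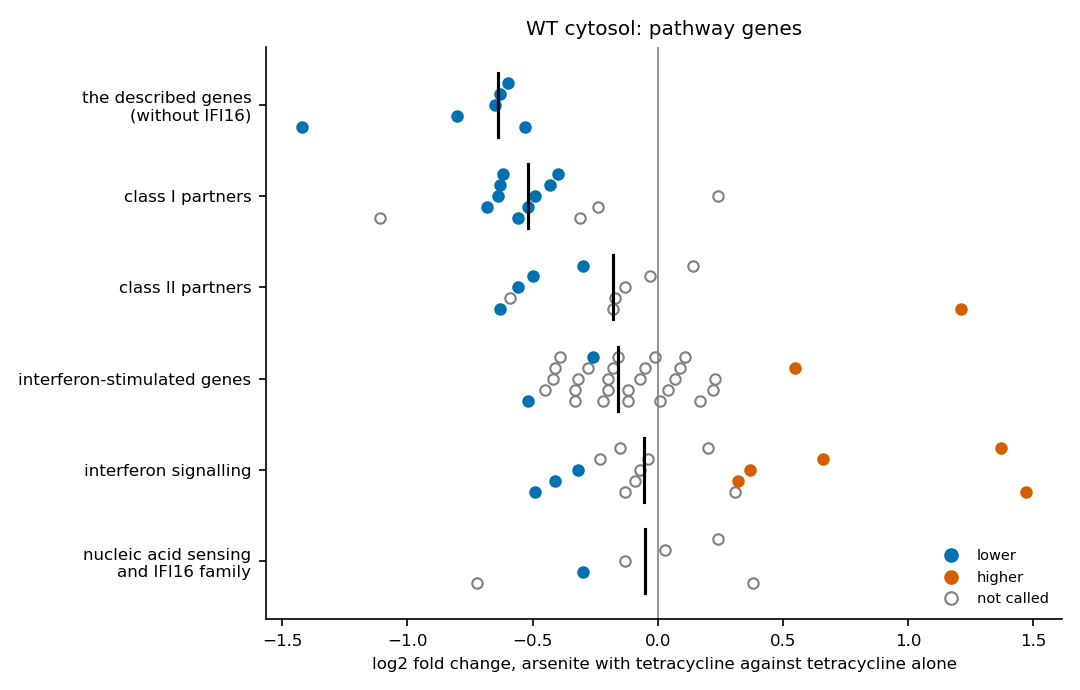
Log2 fold change with arsenite in WT cytosol (x axis) of each gene tested, by list (rows). Filled points are lower or higher at an edgeR adjusted p under 0.05, open points are not called, and bars are medians. The class I partners sit mostly left of 0 with the described genes, while the interferon lists spread around 0.

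Tetracycline alone, without arsenite, had no called effect on the 7 genes in WT cytosol. None was called by edgeR, 2 had an unadjusted p under 0.05 (HLA-E and HLA-DMB), and DESeq2 also called 0, while 5.31% of all genes were called. HLA-E stood at 96.3, 97.3 and 94.2 CPM untreated and at 111, 103 and 115 CPM with tetracycline, with no overlap (log2 0.23 ± 0.0808, edgeR adjusted p = 0.0924). BST2 stood at 6.60, 3.58 and 5.02 CPM untreated and 3.25, 3.39 and 2.59 CPM with tetracycline, with an interval of -1.46 to 0.10 for the log2 fold change. The intervals of HLA-B, HLA-C and B2M lay within -0.20 and 0.26, so larger log2 changes than that lie outside them. With library size alone the share of lower genes among all calls in this comparison moved from 44.9% to 56.1%.

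IFI16 in WDM cytosol is the response by which it was chosen and is given as description. It stood at 11.7, 12.6 and 14.1 CPM (161 to 171 counts) in untreated WDM cells and at 1.13, 1.85 and 2.59 CPM (9 to 49 counts) with tetracycline, a log2 fold change of -2.65. The groups are far apart, and 3.23% of all genes were called lower in this comparison. BST2 fell from 11.7, 11.4 and 12.2 CPM to 4.64, 10.2 and 7.04 CPM in the same libraries (log2 -0.65), and the remaining 5 genes had log2 fold changes from -0.06 to 0.32. The WDM tetracycline library of replicate 1 was the lowest of its group for all 7 genes. In the WT line IFI16 had 1 to 5 counts untreated and 1 to 2 counts with tetracycline, so the effect of tetracycline on it could not be measured there.

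The lines differed in IFI16, HLA-B and BST2, and the differences ran in opposite directions. IFI16 was higher in WDM cells in every condition and both fractions. HLA-B was lower in WDM cytosol in all 3 conditions by 1.57-fold to 1.63-fold, and BST2 was higher in untreated WDM cytosol by 2.26-fold. HLA-C, HLA-E and B2M were not called between the lines in any condition.

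IFI16 passed the filter on low counts through its WDM libraries, so its values between the lines are a description, with no test. In untreated cytosol the WDM libraries averaged 12.8 ± 1.20 CPM (SD, n = 3) and the WT libraries 0.302 ± 0.198 CPM, which is a log2 difference of 5.33. With tetracycline it was at least 7.64-fold higher in WDM, taking 3 counts as the most that the smallest WT library could hold. With arsenite in cytosol the WDM libraries held 33, 45 and 47 counts and the WT libraries 2, 0 and 1, at least 11.6-fold higher in WDM. In granule cores IFI16 was at least 4.14-fold higher in WDM without arsenite and at least 6.70-fold higher with it. The highest IFI16 count in any WT library with tetracycline or arsenite was 2. The other IFI16-family genes AIM2, MNDA and PYHIN1 did not exceed 4 counts in any library of either line.

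HLA-B in untreated cytosol stood at 114, 118 and 115 CPM in WT and 74.1, 72.9 and 72 CPM in WDM. The groups do not overlap, with a log2 difference (WDM minus WT) of -0.70 ± 0.0925 (edgeR adjusted p = 2.39e-05), and 9.78% of all genes differed between the untreated lines. With tetracycline the WDM libraries held 63.7, 87.4 and 79.5 CPM and the log2 difference was -0.65 ± 0.0922 (edgeR adjusted p = 4.49e-05), with 12.6% of all genes called. With arsenite they held 50.6, 50.1 and 50.6 CPM against 81.2, 82.6 and 81.0 CPM in WT (log2 -0.70 ± 0.0933, edgeR adjusted p = 2.06e-05), with 10.4% of all genes called. HLA-C, by contrast, stood at 259, 263 and 272 CPM in untreated WT and 265, 272 and 254 CPM in untreated WDM, and its 3 log2 differences in cytosol were -0.04, -0.09 and -0.15, with none called. In granule cores HLA-B was not called between the lines, with log2 differences of -0.30 (interval -0.77 to 0.18) and -0.46 (interval -0.93 to 0.00), which include the size seen in cytosol.

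BST2 in untreated cytosol stood at 6.60, 3.58 and 5.02 CPM in WT and 11.7, 11.4 and 12.2 CPM in WDM. All WDM libraries are above all WT libraries, with a log2 difference of 1.18 ± 0.323 (edgeR adjusted p = 0.0264). The call was lost when any of 5 of the 6 libraries was left out (log2 0.99 to 1.41, adjusted p up to 0.126). In granule cores BST2 passed the filter on low counts through its WDM libraries, so its values between the lines there are a description, with no test. Without arsenite it was at 0.991, 1.71 and 1.41 CPM in WDM cores and 0.169, 0.390 and 0.199 CPM (1 to 5 counts) in WT cores, a log2 difference of 2.44. Over all genes 5.55% were called in that comparison. With arsenite the BST2 groups in granule cores overlapped (log2 1.05). Of HLA-B, HLA-C, HLA-E and B2M in arsenite cores, 0 were called by edgeR, 0 had an unadjusted p under 0.05 and 0 were called by DESeq2. Over all genes 7.95% were called there. With library size alone the share of lower genes among all calls moved from 48.3% to 34.0% in arsenite granule cores and from 54.1% to 44% in tetracycline cytosol.

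**Figure D4:**
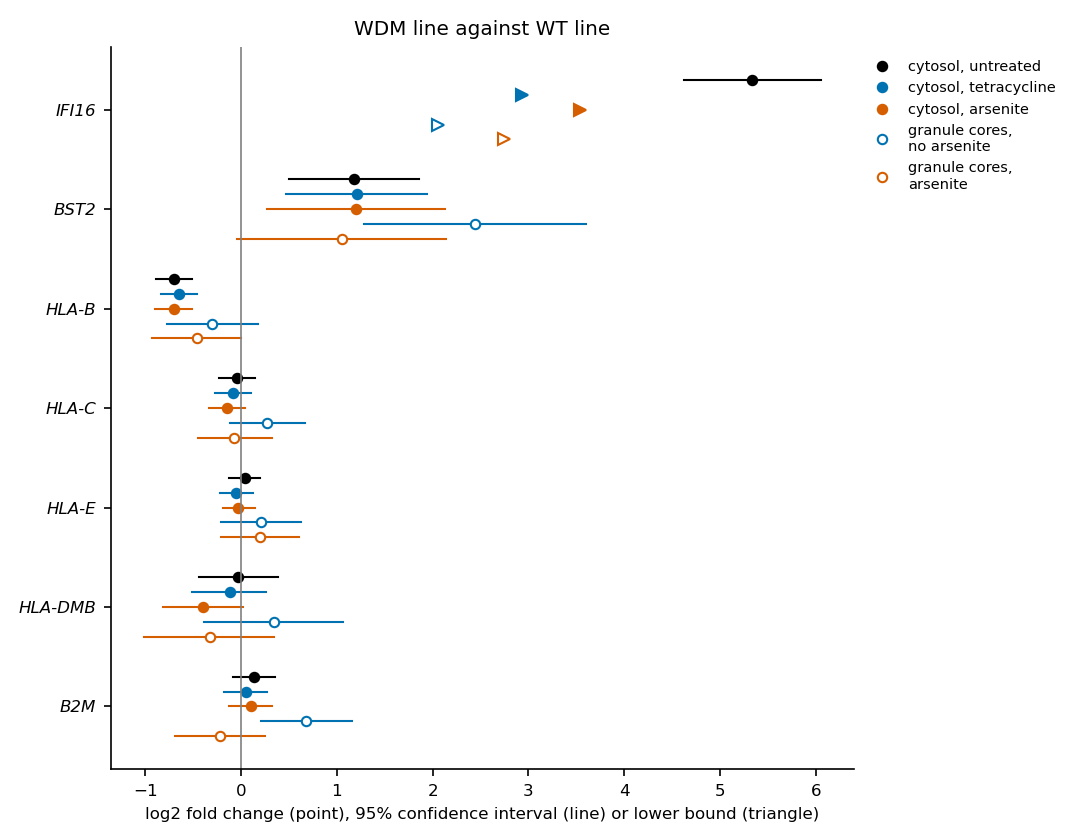
Log2 difference between the lines (x axis, WDM minus WT; points with 95% confidence intervals) for each gene, in cytosol (filled) and granule cores (open). Triangles are lower bounds for IFI16 where all WT libraries have 3 counts or fewer. IFI16 lies far to the right, HLA-B lies left of 0 in cytosol, and HLA-C and HLA-E lie near 0.

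Other genes of the lists differed between the lines in both directions. Over all genes 4.19% were higher and 5.6% lower in untreated WDM cytosol, 5.80% and 6.84% with tetracycline, and 4.98% and 5.37% with arsenite. In untreated cytosol 1 of 13 class I partners tested was lower in WDM, the chaperone CALR (log2 -0.53, edgeR adjusted p = 0.00442), and 0 were higher. Of 29 interferon-stimulated genes tested, 2 were higher and 3 lower untreated, 7 higher and 1 lower with tetracycline, and 7 higher and 3 lower with arsenite. IFITM3, a membrane protein that restricts viral entry, was higher by 1.75 on the log2 scale in WDM with arsenite, and OAS3, an oligoadenylate synthetase activated by double-stranded RNA, was lower by a log2 difference of -1.03. None of 16 interferon signalling genes was called between the lines in cytosol in any condition. Among 6 tested genes of nucleic acid sensing, DHX58 was higher in untreated WDM cytosol (log2 1.15). IKBKE, a kinase upstream of IRF3 whose untreated value was picked after it was seen, was higher in WDM in all 3 conditions (log2 1.05, 1.45 and 1.26).

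RNA of the class I genes made up less of granule cores than of cytosol in both lines. In WT cells without arsenite 6 of the 7 genes were lower in the cores, by 3.63-fold for HLA-E to 12.1-fold for BST2, and all core libraries lay below all cytosol libraries for each. Over all genes 36.2% of 18141 were lower in that comparison. Values are relative to each library's total, so a lower value in the cores is a smaller share of core RNA, not a count of molecules per cell.

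Among the members B2M and BST2 had the lowest ratios. B2M in WT cores stood at 35.2, 18.4 and 28.5 CPM against 233, 283 and 290 CPM in cytosol, a log2 fold change of -3.36 ± 0.225 (edgeR adjusted p = 3.40e-13). BST2 in WT cores had 1, 5 and 5 counts, with a log2 fold change of -3.60 ± 0.590 (edgeR adjusted p = 4.06e-06). HLA-C was at 48.1, 42.2 and 42.1 CPM in WT cores (log2 -2.57), HLA-B at 27.1, 24.0 and 24.9 CPM (log2 -2.25) and HLA-E at 36.6, 28.5 and 28.9 CPM (log2 -1.86). The interval of HLA-E (-2.22 to -1.50) does not overlap that of B2M (-3.82 to -2.90) but does overlap that of HLA-B (-2.67 to -1.82), and differences between genes were not tested. HLA-DMB was at 1.02, 0.703 and 1.79 CPM in the cores (log2 -2.63).

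The class I genes had the same order of values in the other comparisons of fractions. In WDM cells without arsenite all 4 genes that could be tested were lower in the cores (B2M -2.73, HLA-C -2.22, HLA-B -1.89 and HLA-E -1.60 on the log2 scale), against 35.3% of all genes. In WT cells with arsenite 6 of 7 were lower, from -1.32 for HLA-E to -3.09 for B2M, against 35.5% of all genes. In WDM cells with arsenite all 5 tested genes were lower, from -1.09 for HLA-E to -3.39 for B2M, against 35.7% of all genes. IFI16 in WDM stood at 1.13, 1.85 and 2.59 CPM in cytosol and 1.19, 2.30 and 2.82 CPM in cores without arsenite, overlapping groups that are given as description (log2 0.16). With arsenite it was lower in the cores, at 0.676, 0.952 and 1.57 CPM against 2.17, 2.68 and 3.53 CPM (log2 -1.42 ± 0.336, edgeR adjusted p = 4.63e-04).

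The members have short transcripts, with canonical lengths from 943 bases (B2M) to 2883 bases (IFI16). Over the 6758 tested genes in that range of length, the median log2 fold change of cores against cytosol in WT cells without arsenite was -0.50 and 49.2% were lower, against a median of 0.07 over all genes. The part of length in the members' values was not tested. Class I partners were lower in the cores as well, with 12 of 13 lower and 1 higher in WT cells without arsenite and a median of -1.99. PSME1, an activator of the proteasome, was lowest (log2 -2.96), and NLRC5, the transactivator of class I genes, was higher (log2 0.90). Of 30 interferon-stimulated genes tested there 17 were lower and 6 higher.

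**Figure D5:**
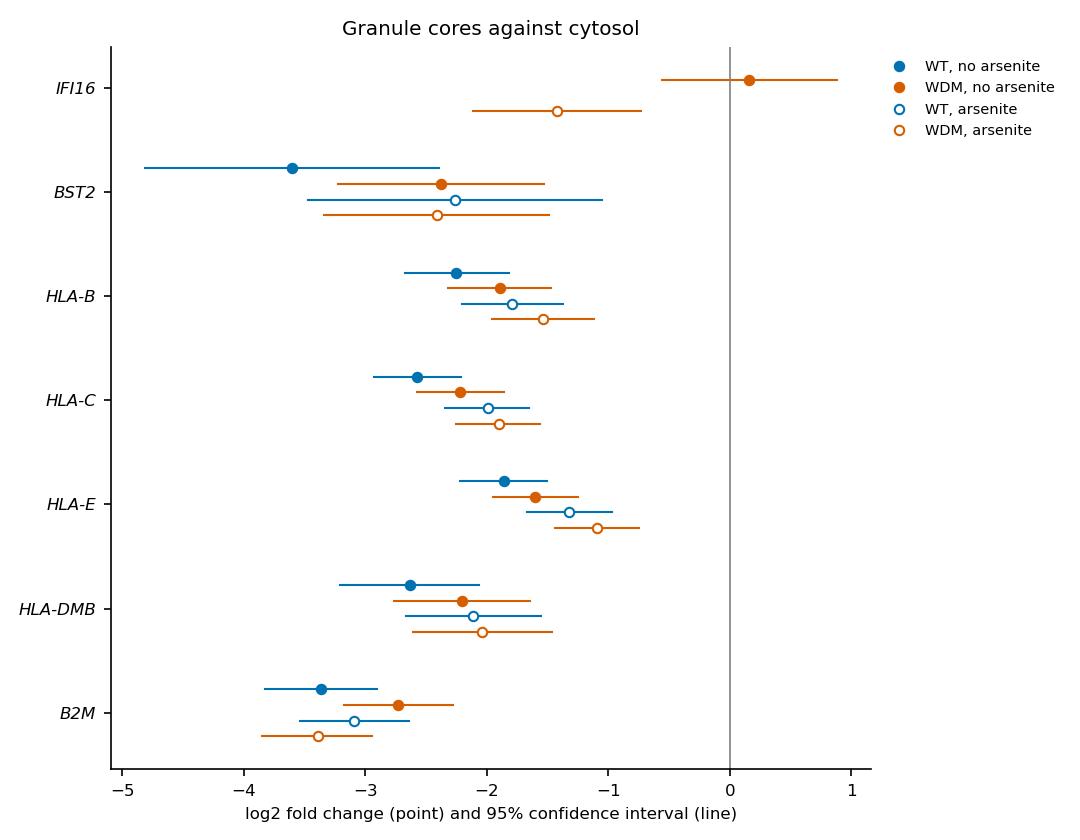
Log2 fold change of granule cores against cytosol (x axis, point) with its 95% confidence interval (line) for each gene, in 4 conditions. All genes but IFI16 lie well left of 0 in every condition, with HLA-E nearest to 0 and B2M and BST2 farthest. IFI16 is drawn for WDM alone.

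Within the granule cores of WT cells arsenite had no called effect on any of the 7 genes, though IFI16 and BST2 had too few counts to measure one. None was called by edgeR, 0 had an unadjusted p under 0.05 and DESeq2 called 0, while 30.6% of the 18366 genes tested were called. HLA-B, for example, stood at 27.1, 24.0 and 24.9 CPM without and 18.6, 24.4 and 27.8 CPM with arsenite. IFI16 had 0 to 2 counts per library and BST2 1 to 13, and the BST2 interval reached from -1.34 to 1.40 on the log2 scale. The HLA-DMB interval (-0.85 to 0.57) included its log2 fold change in WT cytosol (-0.80). The intervals for HLA-B, HLA-C and HLA-E reached from -0.56 to 0.52 on the log2 scale, and that for B2M from -0.73 to 0.22. The lower limits of HLA-B (-0.56), HLA-C (-0.31) and HLA-E (-0.30) lay above the log2 fold changes of the same genes in WT cytosol, while the B2M interval included its own. The cytosol interval of HLA-B (-0.84 to -0.46) still overlapped its core interval, while those of HLA-C and HLA-E did not. The difference between the fractions in the response to arsenite was not tested.

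In WDM granule cores B2M and IFI16 were called lower with arsenite, as were 17.7% of all genes. B2M stood at 27.4, 50.6 and 51.2 CPM without and 18.6, 20.6 and 22.2 CPM with arsenite, with no overlap (log2 -1.15 ± 0.230, edgeR adjusted p = 3.56e-04). BST2 and HLA-DMB had been chosen for a fall with arsenite in this line, so their values here are a description, with no test. BST2 went from 0.991, 1.71 and 1.41 CPM to 0.857, 0.166 and 0.693 CPM (log2 -1.36). IFI16 went from 1.19, 2.30 and 2.82 CPM to 0.676, 0.952 and 1.57 CPM in overlapping groups (log2 -1.06 ± 0.357, edgeR adjusted p = 0.0210), and the call was lost with DESeq2 (adjusted p = 0.0533), with only the 2 groups fitted (adjusted p = 0.0511) and without any of 4 of the 6 libraries. HLA-DMB was at 1.39, 1.71 and 1.65 CPM without and 0.676, 1.24 and 0.912 CPM with arsenite (log2 -0.82). HLA-B, HLA-C and HLA-E were not called, with log2 fold changes of -0.25, -0.26 and 0.10.

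The library of replicate 1 in the WDM tetracycline cores was the lowest of its group for all 7 genes, at 10.3 CPM for HLA-B against 26.0 and 24.5 CPM in the others. Without it 5 of the 7 genes were called lower with arsenite in WDM cores, and without replicate 2 of that group 1 was called. These counts and the next test are over all 7 genes, BST2 and HLA-DMB among them, although both are otherwise described here. The difference of the arsenite response between the lines in granule cores was tested directly, and 0 of the 7 genes and 0 of 18366 genes (0%) were called by edgeR, with 2329 genes and 1 member at an unadjusted p under 0.05 and 0 called by DESeq2. That member was B2M, with a log2 difference (WDM minus WT) of -0.90 ± 0.325 (edgeR adjusted p = 0.277). The calls in WDM cores and their lack in WT cores are therefore not shown to differ.

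Over all genes 18.7% were higher and 17.7% lower with arsenite in WDM granule cores, and 16.5% and 14.1% in WT cores. Of the other lists in WDM granule cores, 5 of 11 class II genes were lower with arsenite and 2 higher, with HLA-DOA lowest (log2 -1.20). Of 16 signalling genes 6 were higher and 1 lower. SOCS3 rose most among those with at least 1 CPM (log2 1.67), and IRF2, a repressor among the IRF factors, fell (log2 -0.63). In WT cores 7 signalling genes were higher and 2 lower, again with SOCS3 (log2 1.72) and IRF2 (log2 -0.92) at the ends.

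The genes whose pattern across the 18 cytosol libraries was most like each member's are given as a description, by Pearson's r of log2 CPM over genes with a mean of at least 5 CPM. These libraries share the lines and treatments, so r is set largely by differences between groups. Among the genes closest to HLA-C was CPVL (r = 0.977), a carboxypeptidase, and HLA-B was most like GOLIM4 (r = 0.987), a Golgi membrane protein. HLA-E was most like GOLM1 (r = 0.978), another Golgi membrane protein, and B2M most like NDUFA4 (r = 0.974), a protein of the respiratory chain. HLA-DMB was most like IFNGR2 (r = 0.943), the other chain of the interferon gamma receptor, BST2 most like RNF122 (r = 0.961) and IFI16 most like NDRG1 (r = 0.940). Between members r was 0.909 for HLA-C with B2M, 0.912 for HLA-E with HLA-DMB and -0.574 for IFI16 with HLA-B.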

How the data were processed

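Per the labels, total RNA was depleted of rRNA with Ribo-Zero Gold and made into stranded TruSeq libraries. The values are raw counts of reads per gene, deposited by the authors in 1 table with a column per library and no pooling. The submitters' processing notes name Trimmomatic, STAR, Picard, featureCounts and GRCh38. How strand, overlapping genes and multi-mapped reads were counted is not given in the sources used here. Of the table's genes, 60463 were matched by identifier to GENCODE v44, 56693 with identical coordinates.

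Counts were tested with edgeR 4.0.16 (R 4.3.3): filterByExpr (minimum count 10, minimum total 15), TMM factors, a group-means model and the robust quasi-likelihood test, with Benjamini-Hochberg adjustment across every gene in a fit and a threshold of 0.05. The 18 cytosol libraries (16670 genes), the 12 granule libraries (18366) and, between fractions, the 24 tetracycline libraries (18141) were each fitted together. The SE is the log2 fold change over the root of its F statistic. All 7 genes passed the filter in each fit, IFI16 through its WDM libraries and, in the granule fit, BST2 through its WDM libraries as well. Members used in their own choice were left out of tests on the libraries concerned: IFI16 where untreated or tetracycline WDM cytosol was used, and BST2 and HLA-DMB where tetracycline or arsenite WDM cytosol was used. No member was tested for either treatment in WDM cytosol. No p is given for IFI16 between the lines, or for BST2 between the lines in granule cores. The same holds for BST2 and HLA-DMB with arsenite in WDM granule cores. The code was tested on simulated data.

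A fold against a group with at most 3 counts in every library was computed against 3 counts in its smallest library. Chi-square tests between replicates of a group gave 1.57 to 36.5 per degree of freedom, so no pair looked like 1 library deposited again. The members and gene lists were chosen with earlier results of these data known. The rule for names was all 7 members, and per list and comparison at most the largest called rise and fall whose higher group averaged 1 CPM or more, and for likeness the closest genes. Promoter matches, tables and figures were made with Python, pandas and matplotlib. The alternatives were DESeq2 1.42.0, RLE factors, library size alone, no filter beyond 1 count in all, a block for the replicate number, fitting the compared groups by themselves, and leaving out each library in turn. Some genes of the lists are counted in them but not reported here by name.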

Additional observations from a re-analysis of the deposited data

How the results depend on the processing

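The counts of called members in the 13 comparisons hold some genes that are given above as description. These are IFI16 between the lines under arsenite and in granule cores, and BST2 between the lines in granule cores. BST2 and HLA-DMB with arsenite in WDM granule cores are others. Stability of the counts is no support for those genes. The counts were within 1.5 times the main count in all 78 fits that changed a setting, and in 70 of 78 fits that left out 1 library. Left-out libraries moved the count from 2 to between 1 and 2 for the lines in untreated cytosol, from 2 to between 1 and 3 for the lines in granule cores without arsenite, and from 3 to between 1 and 5 for arsenite in WDM granule cores. With the replicate number as a block the counts were the same, for example 6 for arsenite in WT cytosol and 3 in WDM granule cores, and the block changed no call. Deviations correlated above 0.1 in 15 of 45 same-numbered cytosol pairs, against 8 of 90 pairs with different numbers. Among libraries of the fit between fractions this was 32 of 84 against 37 of 168, and in granule cores 6 of 18 against 15 of 36. Such correlations were thus more frequent with the same number in cytosol and between fractions, but not in cores. The mean correlations of same-numbered pairs were 0.065, 0.056 and 0.001 in that order. Whether the numbers mark paired libraries was not tested.

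No called value changed sign under any of these alternatives. Values that were not called or not tested, most of them near 0, did. With no low-count filter the log2 value became 0.02 for HLA-C and 0.03 for HLA-DMB between untreated lines, and 0.0016 for HLA-C with tetracycline in WT. With library size alone it became 0.0035 for HLA-DMB between untreated lines, 0.0048 for HLA-E between tetracycline lines, -0.01 for B2M with tetracycline in WT and 0.02 for HLA-C between arsenite cores. DESeq2 gave -0.01 for BST2 with arsenite in WT cores, and the fit of only those groups gave BST2 no value there because of the filter. Leaving out 1 library gave these ranges. Between the lines in cytosol they were -0.09 to 0.08 (HLA-DMB, untreated), -0.17 to 0.03 (HLA-C), -0.10 to 0.03 (HLA-E), -0.31 to 0.05 (HLA-DMB) and -0.08 to 0.13 (B2M) with tetracycline, and -0.08 to 0.02 (HLA-E) with arsenite. Between the lines in cores they were -0.53 to 0.02 (HLA-B, no arsenite) and -0.14 to 0.07 (HLA-C, arsenite). With tetracycline in WT cytosol they were -0.01 to 0.13 (HLA-B), -0.06 to 0.04 (HLA-C) and -0.04 to 0.16 (B2M), and in WDM -0.01 to 0.21 (HLA-B), -0.14 to 0.06 (HLA-C) and -0.16 to 0.02 (B2M). With arsenite they were -1.35 to 0.04 (IFI16, WT cytosol), -1.05 to 0.45 (BST2), -0.24 to 0.03 (HLA-B), -0.06 to 0.16 (HLA-C), -0.08 to 0.22 (HLA-E) and -0.39 to 0.45 (HLA-DMB) in WT cores, and -0.14 to 0.25 (HLA-E) in WDM cores. Cores against cytosol gave IFI16 -0.92 to 0.01 (WT) and -0.13 to 0.49 (WDM) without arsenite and -1.45 to 0.10 (WT) with it. B2M gained a call between untreated lines when only those groups were fitted (log2 0.13), and between cores without arsenite with no low-count filter (log2 0.67). The causes were not tested. Depth limits IFI16 in WT and BST2 in cores, at 5 and 26 counts or fewer per library.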
